A study of Rattus norvegicus with 105 samples.

Results

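The genes described here mark the walls of blood vessels: 22 endothelial genes, 6 genes of the contractile apparatus of smooth muscle, 4 pericyte genes, the endothelin receptor Ednra and the collagens Col4a1 and Col4a2, 35 genes in all among the 14217 gene symbols that the arrays carry. They were chosen by name from what they are known for, by a choice made with earlier results of these data known. Whether each gene is confined to vessel cells in this tissue was not tested. Each was read from the probe set annotated with its symbol alone, and the brightest one was taken where a gene had several. Of the 35, 33 were measured; Cdh5 and Ednra had no probe set with that symbol alone.

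The material was total RNA from the frontal cortex of rats, 1 sample to an Affymetrix array, in 3 experiments. The lesion experiment held 12 arrays of animals whose ventral hippocampus had been lesioned and 10 sham arrays. In the second experiment 11 arrays came from animals with tetrodotoxin (TTX), a blocker of voltage-gated sodium channels, in the ventral hippocampus, and 9 from sham animals. In the neuroleptic experiment clozapine had 10 arrays at its low level, 9 at its medium level and 8 at its high level, haloperidol had 9 at every level, and vehicle had 9. The labels name dose levels without amounts, and strain, sex, age, lesioning agent and length of treatment were not in the sources used here. Whether every array came from its own animal is not stated, and the p-values therefore reflect sample-to-sample spread that may be partly technical.

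A brain capillary is a tube of endothelial cells sealed by tight junctions, which together with transporters and efflux pumps form the blood-brain barrier. Pericytes sit in the basement membrane around it, and arterioles carry a coat of smooth muscle whose actin and myosin set the vessel's width. Endothelium and mural cells signal to each other, for example through endothelin, which contracts smooth muscle, and through nitric oxide, which relaxes it. Clozapine and haloperidol are an atypical and a typical antipsychotic.

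Values are given on the log2 scale of the intensities, which the authors had scaled to a common mean and which were here quantile-normalised by experiment with a floor of 32. Mean correlations of an array with the others of its experiment lay between 0.9452 and 0.9611, and 4 arrays stood apart by this measure, namely lesion replicate 7, lesion sham replicate 9, haloperidol medium replicate 8 and haloperidol high replicate 8. Of the other-cell marker lists examined beside the vascular genes (neuron, astrocyte, microglia, oligodendrocyte, meninges, choroid plexus and blood), none had a measured gene at the floor in every array of a group, and the 8 neuronal genes were all bright enough to be tested in each experiment. Tests ran on the 18625 probe sets with the highest mean in an experiment (60%), and a probe set was called at a Benjamini-Hochberg adjusted p under 0.05. Of the vascular genes 30 were tested in the lesion and TTX experiments and 28 in the neuroleptic experiment. The calponin gene Cnn1 and the nitric oxide synthase gene Nos3 were too dim for testing throughout. Desmin (Des) was tested with TTX and in a joint fit of both surgical experiments, but not with the lesion alone. The leukocyte adhesion molecule Icam1 was tested only with the lesion. Aminopeptidase N (Anpep) was tested in both surgical experiments and in the joint fit.

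Promoter sequence is shown for genes that the results below turn on, as the 200 bases before the start site in RefSeq's GRCr8 annotation, whose table held 23 of the 35 genes. Acta2, smooth muscle alpha-actin, lies on chr1, minus strand, with its window at chr1:241172504-241172703, and the capitals mark CArG-like boxes, the sites of serum response factor. Edn1, endothelin 1, lies on chr17, minus strand, at chr17:22666688-22666887, with TATAAA in capitals. Kdr, a receptor for vascular endothelial growth factor, lies on chr14, plus strand, at chr14:32571863-32572062, and Emcn, the sialomucin endomucin, on chr2, plus strand, at chr2:228564339-228564538. In both of these the capitals mark GGAA on either strand, the core bound by ETS factors.
Acta2: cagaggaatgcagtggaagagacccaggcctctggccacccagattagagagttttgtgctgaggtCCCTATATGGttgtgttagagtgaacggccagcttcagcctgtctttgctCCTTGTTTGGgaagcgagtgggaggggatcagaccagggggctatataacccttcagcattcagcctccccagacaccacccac
Edn1: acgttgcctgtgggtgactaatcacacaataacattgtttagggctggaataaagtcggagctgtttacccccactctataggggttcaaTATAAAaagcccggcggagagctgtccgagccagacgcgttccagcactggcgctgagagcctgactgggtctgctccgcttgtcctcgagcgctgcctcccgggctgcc
Kdr: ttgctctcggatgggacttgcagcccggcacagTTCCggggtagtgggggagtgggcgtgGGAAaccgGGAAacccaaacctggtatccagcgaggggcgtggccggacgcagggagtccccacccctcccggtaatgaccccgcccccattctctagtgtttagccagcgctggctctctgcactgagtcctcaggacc
Emcn: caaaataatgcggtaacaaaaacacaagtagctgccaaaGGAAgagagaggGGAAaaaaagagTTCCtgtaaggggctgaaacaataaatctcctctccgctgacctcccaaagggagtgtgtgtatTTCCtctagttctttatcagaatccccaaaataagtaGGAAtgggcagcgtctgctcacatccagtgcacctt
The perfect CArG box, with only A and T in its centre, was found in 0 of the 23 windows and in 1.16% of the 33469 promoters of the table. Of the 6 contractile genes only 3 had a window, Acta2, Cnn1 and Des, so Tagln, Myl9 and Myh11 were not searched. With at most 1 C or G allowed in the centre, Acta2 held 2, which begin 134 and 84 bases before the start site, and Tie1 held 1, against 6.52% of all promoters with any. GGAA was in 20 of the 23 windows and in 88.9% of all promoters, so its presence sets no gene apart here. TATAAA was in 4 of the 23, Edn1 among them, and in 10.4% of all promoters. These matches describe letters in a window and not binding.

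The vascular genes differed widely in how steady they were from array to array. Transgelin (Tagln), an actin-binding protein of smooth muscle, had a within-group SD over arrays of 0.606 (lesion experiment), 0.616 (TTX) and 0.754 (neuroleptic). Among the probe sets tested these SDs were at the percentiles 99.1, 99.4 and 99.6. The barrier transporter of thyroid hormone Slco1c1 (0.139, 0.151 and 0.125) and the tight junction scaffold Tjp1 (0.111, 0.140 and 0.136) were steady, at percentiles of 21.5, 32.8 and 9.77 and of 9.7, 27.5 and 14.1. The receptor Tek (0.176, 0.166 and 0.189) and the tight junction protein Cldn5 (0.175, 0.155 and 0.190) lay at percentiles between 34.6 and 39.6. Icam1 had an SD of 0.860 in the lesion experiment, above that of the other 29 vascular genes tested there, and its lesion arrays reached from 5.69 to 9.69 with a median of 9.24.

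After the lesion the contractile genes stood lower than in sham: all 4 tested had a negative difference, with a median of -0.20 log2 units against -0.0012 over all probe sets tested. Acta2 ran from 8.88 to 9.91 with a median of 9.56 on the 12 lesion arrays, and from 9.28 to 10.47 with a median of 9.78 on the 10 sham arrays. The groups overlapped, and 11 of 12 lesion arrays lay below the sham mean. Mean Acta2 was 9.45 ± 0.31 on lesion arrays (SD, n = 12) and 9.81 ± 0.31 on sham arrays (SD, n = 10), a difference of -0.35 ± 0.13 (SE; limma, adjusted p = 0.588). The regulatory myosin light chain Myl9 differed by -0.23 ± 0.13 in 9 of 12 arrays, the smooth muscle myosin heavy chain Myh11 by -0.18 ± 0.14 in 9 of 12, and Tagln by -0.17 ± 0.24 in 7 of 12. The 2 dim members of the group were untested; Cnn1 differed by -0.42 ± 0.48 and Des by 0.046 ± 0.14. The titles number the samples of each experiment without a break, and the numbers were divided here into stretches of near-equal length, called runs below, 2 for each surgical experiment. Within the 2 runs Acta2 differed by -0.18 and -0.52, Myl9 by -0.30 and -0.16, Myh11 by -0.084 and -0.27, and Tagln by -0.15 and -0.19. Without the arrays that stood apart, the Acta2 difference was -0.23 (adjusted p = 0.646), since lesion replicate 7 held the lowest and sham replicate 9 the highest value. In bulk tissue such as this, fewer cells of a type and less RNA per cell cannot be told apart.

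Over all vascular genes, 21 of the 30 tested were lower after the lesion and 9 higher, where 49.5% of all probe sets were higher, and 0 were called, as were 0% of all probe sets. At an unadjusted p under 0.05 there were 3 of 30, all lower, beside a background of 7.81% of probe sets in either direction and 3.55% lower. Besides Acta2 these were the endothelial glucose transporter Slc2a1 and the junctional adhesion molecule Esam. Slc2a1 ran from 12.62 to 13.20 with a median of 12.96 after the lesion, and from 12.93 to 13.36 with a median of 13.15 in sham. The groups overlapped, with a Slc2a1 difference of -0.17 ± 0.062 in 10 of 12 arrays (adjusted p = 0.588), by -0.095 and -0.25 within the runs. Esam lay between 10.84 and 11.82 with a median of 11.53 after the lesion, and in the narrow span of 11.60 to 11.82 with a median of 11.72 in sham. Its difference was -0.18 ± 0.083 in 10 of 12 arrays (adjusted p = 0.621), and -0.12 without the arrays that stood apart, of which lesion replicate 7 gave its lowest value.

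The endothelial genes as a group lay closer to no difference than the contractile ones, with 14 of 20 tested lower and a median of -0.047. Among them the adhesion molecule Pecam1 (-0.19 ± 0.11) and Tek (-0.12 ± 0.075), the receptor of the angiopoietins, were lower in 9 of 12 arrays each. The growth factor receptor Flt1 (0.17 ± 0.18) and the efflux pump Abcb1a (0.14 ± 0.16) had positive values within their errors. Kdr (-0.048 ± 0.14), endoglin Eng (0.0079 ± 0.099) and Emcn (-0.012 ± 0.080) were near 0. Pericyte genes were split: Mcam (0.093 ± 0.14) and the receptor Pdgfrb (0.035 ± 0.13) above sham, Anpep (-0.11 ± 0.10) and the potassium channel subunit Abcc9 (-0.063 ± 0.12) below. Of the basement membrane collagens, Col4a1 was at -0.12 ± 0.090 and Col4a2 at 0.047 ± 0.12, and Edn1 at 0.030 ± 0.10. The limit of these data is visible in the errors: over the 30 genes the SE ran from 0.053 to 0.34 with a median of 0.11.

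Genes of neighbouring lists were set beside these. Of 14 further smooth muscle and pericyte genes tested, 8 were lower and 6 higher after the lesion, with a median of -0.059. Tropomyosin 1 (Tpm1), which is not confined to muscle, was higher by 0.28 ± 0.074 (adjusted p = 0.506), opposite in sign to Acta2. Of 29 further endothelial genes 18 were lower, with a median of -0.011. Meningeal and fibroblast genes were lower in 10 of 16, with a median of -0.086. The summed intensity of that list ran from 22700 to 86600 on lesion arrays, with a median of 51000. On sham arrays it ran from 21400 to 75600, with a higher median of 67300. Oligodendrocyte genes were lower in 7 of 7, with a median of -0.14. The part of either list in the vascular values was not tested.

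With TTX the contractile genes did not stand lower as a group: 3 of 5 tested were higher and 2 lower than in sham, with a median of 0.035 against -0.00069 over all probe sets. Acta2 ran from 9.91 to 10.69 with a median of 10.11 on the 11 TTX arrays, and from 9.71 to 10.33 with a median of 10.07 on the 9 sham arrays, nearly the same span in both. Its difference was 0.081 ± 0.088 (adjusted p = 0.999). Tagln was the widest of them, at 8.85 to 11.26 with TTX and 10.18 to 11.11 in sham, a difference of -0.35 ± 0.26. Des, which is among the 5 here but was not tested after the lesion, was at 0.15 ± 0.12. Myl9 was at 0.035 ± 0.14 and Myh11 at -0.036 ± 0.13.

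Over all vascular genes 20 of 30 were lower with TTX and 10 higher, where 49.7% of all probe sets were higher, and 0 were called, as were 0% of all probe sets. At an unadjusted p under 0.05 there were 2 of 30, 1 higher and 1 lower, beside a background of 4.63%, of which 2.5% were higher and 2.13% lower. Anpep, the pericyte aminopeptidase, ran from 8.67 to 9.52 with a median of 9.08 on TTX arrays, and from 8.13 to 9.30 with a median of 8.91 in sham. It was higher by 0.31 ± 0.14 in 9 of 11 arrays (adjusted p = 0.999), with 0.31 and 0.30 in the 2 runs of sample numbers. Kdr ran from 10.51 to 11.38 with a median of 10.96 with TTX, and from 10.88 to 11.67 with a median of 11.18 in sham. The Kdr difference was -0.23 ± 0.11 in 9 of 11 arrays (adjusted p = 0.999), and -0.37 in the first run and -0.071 in the second. A dim second Kdr probe set, not tested, was at 0.16 ± 0.3. Mcam, an adhesion molecule of pericytes and endothelium, spread from 8.99 to 11.01 with a median of 9.85 with TTX, and from 9.97 to 10.87 with a median of 10.31 in sham. Its difference of -0.43 ± 0.21 was -0.75 in the first run and -0.15 in the second. The second Mcam probe set was at 0.012 ± 0.14 in the same comparison. The groups overlapped for every one of these genes.

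The endothelial list had 13 of 19 tested genes lower with TTX, with a median of -0.050. Flt1 (-0.29 ± 0.18), Eng (-0.20 ± 0.16), Tjp1 (-0.11 ± 0.065) and Slc2a1 (-0.11 ± 0.076) had the more negative values. Abcb1a (0.17 ± 0.17) and Esam (0.097 ± 0.094) had the more positive. The other Flt1 probe sets were at -0.13 ± 0.11 and -0.08 ± 0.099. Of the further lists, 9 of 14 smooth muscle and pericyte genes and 9 of 11 basement membrane genes were lower, with medians of -0.049 and -0.056, while of 29 further endothelial genes 14 were lower and 15 higher, with a median of 0.001. Of the smooth muscle and pericyte genes, the pericyte regulator Rgs5 was at -0.17 ± 0.062 and the proteoglycan Cspg4 at -0.24 ± 0.12 (adjusted p = 0.999 for both). Oligodendrocyte genes were lower in 7 of 7, with a median of -0.15, and meningeal genes in 12 of 16, with a median of -0.014. Choroid plexus genes summed to 1330 to 108000 on sham arrays, with a median of 1780. With TTX they summed to 1390 to 4000, with a median of 1970. Their part in the vascular values was not tested.

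**Figure D1:**
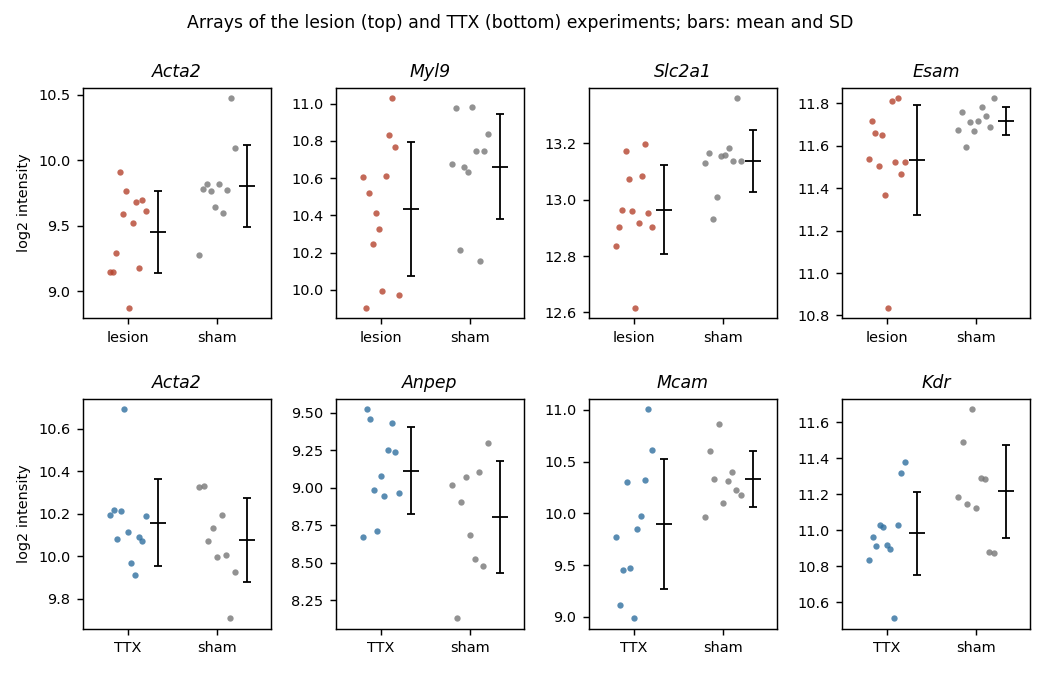
Log2 intensity on each array, lesion left of sham in the upper row and TTX left of sham in the lower row; points are arrays, and the bar beside each group is its mean with the SD. Acta2 averaged 9.45 on lesion arrays and 9.81 on sham arrays, and every pair of groups shown overlaps.

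Whether the lesion and TTX differed in their effects was asked in a joint fit of both experiments. Of the 30 genes 0 were called, as were 0% of all probe sets, and 4 had an unadjusted p under 0.05, beside a background of 6.34%, with 3.22% higher and 3.12% lower. By sign 13 of the 30 were above 0, as were 50.2% of all probe sets. The lesion effect minus the TTX effect was -0.43 ± 0.16 for Acta2 (adjusted p = 0.709), -0.43 ± 0.18 for Anpep (0.711), -0.28 ± 0.13 for Esam (0.776) and 0.53 ± 0.26 for Mcam (0.776). The second Mcam probe set had the opposite sign, at -0.20 ± 0.18 (adjusted p = 0.889). For Acta2 the 95% interval of this difference, not adjusted for the number of genes tested, was -0.76 to -0.11. Flt1 followed with 0.46 ± 0.26, whereas its other probe sets were at -0.07 ± 0.18 and 0.061 ± 0.14. The second Ocln probe set was at 0.37 ± 0.14 (limma, adjusted p = 0.709), while Ocln by its brightest probe set was not among the 4. The 2 experiments used different arrays for their controls, and experiment and intervention otherwise cannot be told apart.

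**Figure D2:**
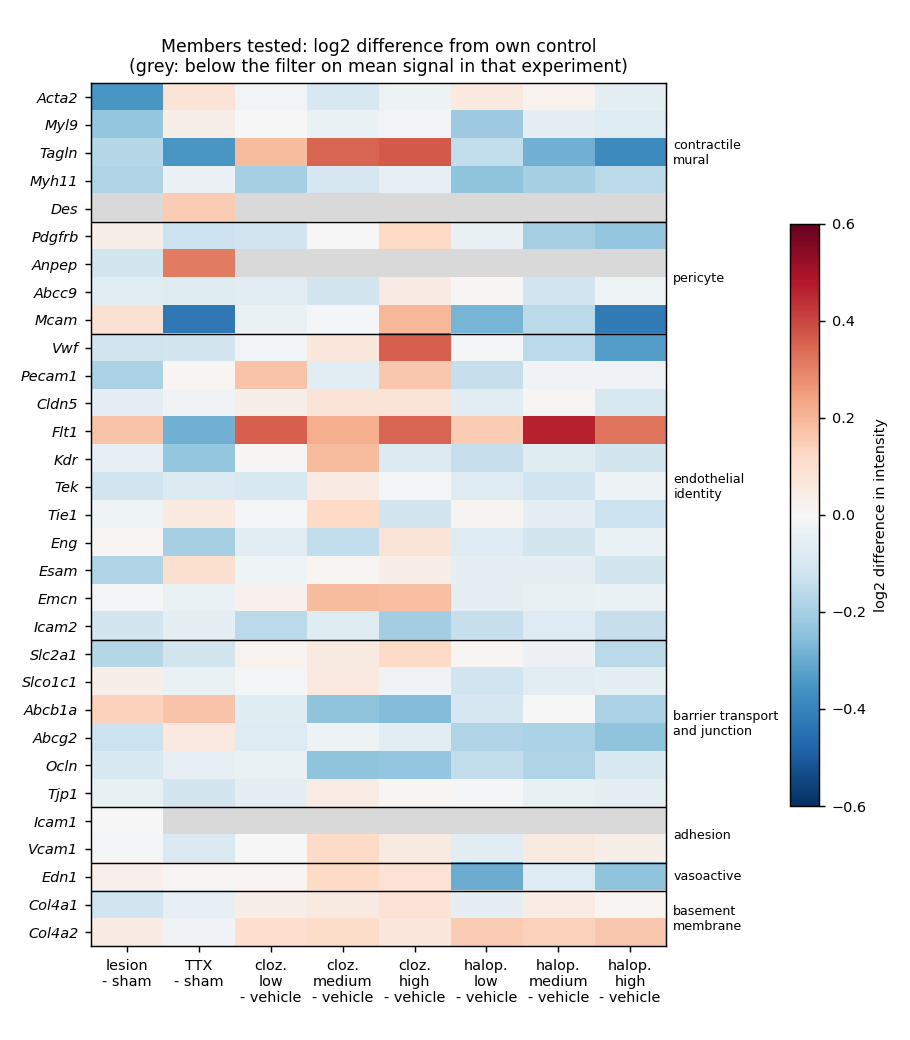
Log2 difference of each tested gene from its own control, with genes down the page by role and the lesion, TTX and the 6 dose levels across; red is higher and blue lower than control, and grey was not tested. The 4 contractile genes tested are blue after the lesion, and under haloperidol most rows are blue at all 3 levels; the 3 levels of each drug share the vehicle arrays.

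Under clozapine the vascular genes lay on both sides of vehicle. Of the 28 tested, 17 had a mean over the 3 dose levels above vehicle and 11 below, where 49.6% of all probe sets were above; 0 were called, as were 0% of all probe sets, and 0 had an unadjusted p under 0.05, beside a background of 3.81%. Emcn was highest by its error, at 0.13 ± 0.074 in 20 of 27 arrays (limma, adjusted p = 0.977). Flt1 (0.31 ± 0.20) and Tagln (0.30 ± 0.28) had the larger positive values. The efflux pump Abcb1a (-0.19 ± 0.17), the tight junction protein occludin Ocln (-0.17 ± 0.12) and the adhesion molecule Icam2 (-0.15 ± 0.098) had the more negative ones. By other tested probe sets Flt1 was at 0.13 ± 0.088 and -0.016 ± 0.091, Abcb1a at 0.037 ± 0.16 and Ocln at 0.17 ± 0.1. The contractile median was -0.034 and the endothelial median 0.010, against -0.00075 over all probe sets. Of the further lists, 10 of 14 smooth muscle and pericyte genes and 19 of 29 endothelial genes were below vehicle, with medians of -0.069 and -0.031, and 9 of 11 basement membrane genes above it, with a median of 0.078.

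Single clozapine levels gave few departures, and 0 of the 28 genes were called at any level. At the low level 0 had an unadjusted p under 0.05, beside 2.72% of all probe sets, where 0% were called. Myh11 was at -0.20 ± 0.11 and Flt1 at 0.36 ± 0.24, with its other probe sets at 0.17 ± 0.1 and -0.014 ± 0.11. At the medium level 2 did, both higher, beside 4.06% in either direction and 2.05% higher, where 0.0215% were called. The leukocyte adhesion molecule Vcam1 was higher by 0.12 ± 0.057 and Emcn by 0.19 ± 0.091 (adjusted p = 0.983 for both). Emcn lay between 10.71 and 11.05 with a median of 10.88 at medium clozapine, and between 10.40 and 11.06 with a median of 10.62 with vehicle, so all 9 clozapine arrays lay inside the vehicle range but above the vehicle mean. At the high level 0 did, beside 3.87%, where 0.00537% were called; Vwf, the clotting factor carrier stored in endothelium, was at 0.36 ± 0.22. Between the high and low levels 0 genes had an unadjusted p under 0.05, beside 3.24% of probe sets, where 0% were called. Vwf differed most, by 0.38 ± 0.21. Among blood transcripts the haemoglobin gene Hbb was higher at high than at low clozapine by 1.03 ± 0.24 (adjusted p = 0.211) and Alas2, of haem synthesis in red cells, by 1.37 ± 0.29 (adjusted p = 0.0686). The blood list summed to 39400 to 98200 at high clozapine and 9080 to 68200 at low clozapine, and its part in the Vwf value was not tested.

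Under haloperidol most vascular genes lay below vehicle. Of 28 tested, 24 had a mean over the 3 levels below vehicle and 4 above, while 43.0% of all probe sets lay above it. Again 0 were called, against 0.0161% of all probe sets, and 1 had an unadjusted p under 0.05, beside a background of 6.73% in either direction and 3.29% lower. That gene was Myh11, which lay between 9.99 and 11.06 with a median of 10.53 on the 27 haloperidol arrays, and between 10.44 and 10.99 with a median of 10.76 on the 9 vehicle arrays. Its difference was -0.20 ± 0.090 in 23 of 27 arrays (limma, adjusted p = 0.693), and -0.29, 0.083, -0.19 and -0.25 within the 4 runs of sample numbers. A dim second Myh11 probe set, not tested, had the opposite sign, at 0.44 ± 0.39. Mcam (-0.29 ± 0.15), Tagln (-0.28 ± 0.28), Edn1 (-0.21 ± 0.12) and Myl9 (-0.12 ± 0.078) followed, and Acta2 was at 0.010 ± 0.15. The endothelial list had 17 of 19 genes below vehicle, with a median of -0.075 against -0.013 over all probe sets. Flt1 was the exception in size, at 0.31 ± 0.20 in 24 of 27 arrays. Its other 2 probe sets were at 0.11 ± 0.088 and -0.15 ± 0.090. All 6 barrier genes were below vehicle, led by the efflux pump Abcg2 at -0.20 ± 0.16. Of the further smooth muscle and pericyte genes 12 of 14 were below vehicle too, with a median of -0.091, and of the further endothelial genes 19 of 29, with a median of -0.036, whereas 8 of 11 further basement membrane genes were above it, with a median of 0.025. Of the markers of other cells, microglial genes were below vehicle in 7 of 8, with a median of -0.081, and astrocyte genes in 6 of 7, with a median of -0.035. Their part in the vascular values was not tested.

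Under haloperidol 0 of the 28 genes were called at any level. At the low level 3 of 28 genes had an unadjusted p under 0.05, all lower, beside 4.25% of probe sets in either direction and 2.06% lower, where 0% were called. These were Edn1 (-0.30 ± 0.14), Myh11 (-0.24 ± 0.11) and Myl9 (-0.22 ± 0.095), each with an adjusted p of 1. Myh11 was below the vehicle mean in 9 of 9 arrays there by its brightest probe set. The dim second Myh11 probe set, not tested, was at 0.25 ± 0.48 at that level. At the medium level 0 did, beside 4.69%, where 0.00537% were called. Flt1 was at 0.46 ± 0.24 there, and at 0.052 ± 0.11 and -0.2 ± 0.11 by its other probe sets. At the high level 1 did, beside 7.75% in either direction and 4.62% lower, where 0.0268% were called: Mcam, at -0.42 ± 0.18 (adjusted p = 0.573). Its second probe set was at -0.084 ± 0.12 there, and at -0.065 ± 0.095 for the mean of the 3 levels. Mcam lay between 8.91 and 10.55 with a median of 9.68 at high haloperidol, and between 9.52 and 10.48 with a median of 10.11 with vehicle. Between the high and low levels 0 did, beside 5.52%, where 0% were called, and the value farthest from 0 was that of Vwf, at -0.32 ± 0.21.

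The drugs were also set against each other over their 3 levels, 27 arrays of clozapine and 27 of haloperidol. Here 22 of the 28 vascular genes were higher under clozapine and 6 lower, with a median of 0.082, while 56.3% of all probe sets were higher. Of the 28 genes 0 were called, against 1.20% of all probe sets. At an unadjusted p under 0.05 there were 8 of 28, all higher under clozapine, where 15.2% of all probe sets reached that level and 8.55% did so in the same direction. They were the peptide Edn1, the endothelial genes Emcn, Vwf and Cldn5, the barrier transporters Slc2a1 and Slco1c1, the pericyte gene Mcam and the contractile gene Tagln; neither basement membrane collagen was among them.

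Edn1 ran from 8.72 to 10.03 with a median of 9.57 under clozapine, and from 8.49 to 9.73 with a median of 9.27 under haloperidol; on the 9 vehicle arrays it ran from 9.10 to 9.86 with a median of 9.45. The drug groups overlapped over most of their span. The difference was 0.28 ± 0.082, in 23 of 27 clozapine arrays (limma, adjusted p = 0.0629). Emcn ran from 10.55 to 11.19 with a median of 10.79 under clozapine, from 10.30 to 11.14 with a median of 10.64 under haloperidol, and from 10.40 to 11.06 with a median of 10.62 with vehicle. It differed by 0.18 ± 0.052 in 23 of 27 arrays (adjusted p = 0.0609). Mcam ran from 9.26 to 10.74 with a median of 10.18 under clozapine, from 8.91 to 10.55 with a median of 9.78 under haloperidol, and from 9.52 to 10.48 with a median of 10.11 with vehicle, and differed by 0.34 ± 0.11 (adjusted p = 0.0831). Its second probe set differed by 0.084 ± 0.068. Vehicle lay nearer to clozapine for Mcam, and between the drugs for Edn1 by its median.

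Tagln ran from 8.50 to 10.89 with a median of 9.95 under clozapine, from 6.99 to 10.64 with a median of 9.27 under haloperidol, and from 9.11 to 10.06 with a median of 9.48 with vehicle. The vehicle arrays were tight and both drugs wide, and the drug means differed by 0.58 ± 0.20 (adjusted p = 0.129). Vwf differed by 0.30 ± 0.12 (adjusted p = 0.202), Slc2a1 by 0.13 ± 0.050 (0.193), Slco1c1 by 0.089 ± 0.035 in 23 of 27 arrays (0.199) and Cldn5 by 0.11 ± 0.052 (0.271). Kdr (0.15 ± 0.073), Pdgfrb (0.16 ± 0.084) and Myl9 (0.097 ± 0.055) followed in the same direction. On the other side Abcb1a was at -0.095 ± 0.12, though its second probe set was at 0.28 ± 0.11, and Acta2 and Col4a2 were both at -0.059, with SE 0.11 and 0.094. Of the further lists, 18 of 29 endothelial and 9 of 14 smooth muscle and pericyte genes were higher under clozapine, with medians of 0.025 and 0.042. Of the further basement membrane genes 10 of 11 were, with a median of 0.056, among them Sparc at 0.18 ± 0.053 (adjusted p = 0.0634), while nidogen 1 (Nid1) was at -0.20 ± 0.075 (adjusted p = 0.159). Both blood genes tested were higher under clozapine, Alas2 by 0.44 ± 0.17 (adjusted p = 0.175), and meningeal genes were at a median of 0.0084. The part of blood in the vascular values was not tested.

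**Figure D3:**
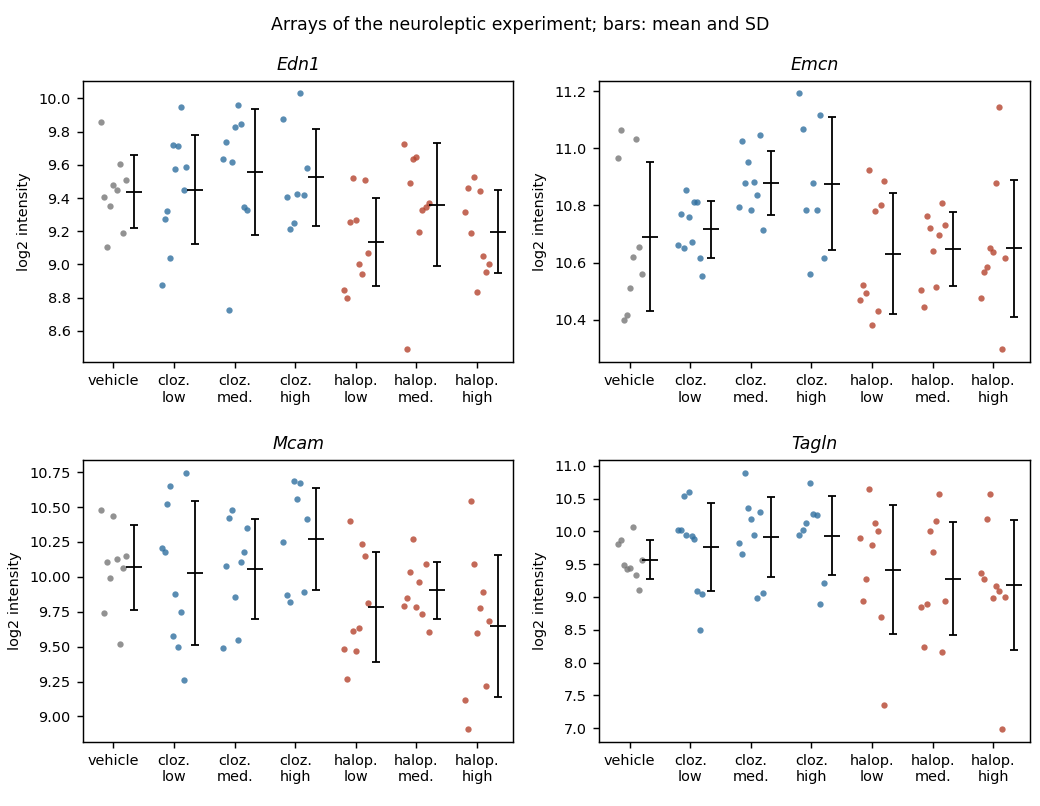
Log2 intensity of Edn1, Emcn, Mcam and Tagln on each array of the neuroleptic experiment, with vehicle at the low end and each drug from low to high; points are arrays and bars show mean and SD. The drug groups overlap for all 4 genes, and the lowest Tagln value, 6.99, is 1 haloperidol array at the high level.

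The drugs were not spread evenly over the sample numbers. Divided here into 4 runs of near-equal length, the arrays held 6 clozapine and 8 haloperidol in the first and again in the second, 12 and 2 in the third, and 3 and 9 in the fourth. Only Mcam and Slco1c1 among the 8 genes differed in the same direction in all 4 runs, Mcam by 0.40, 0.47, 0.14 and 0.38 and Slco1c1 by 0.22, 0.045, 0.11 and 0.018. Edn1 was at 0.29, -0.15, 0.42 and 0.36, and Emcn at 0.39, 0.14, 0.24 and -0.16. Tagln was at 0.83, 0.31, -0.58 and 0.43, Vwf at 0.20, 0.23, -0.26 and 0.68, Slc2a1 at 0.11, -0.048, -0.13 and 0.24, and Cldn5 at 0.13, 0.053, -0.12 and 0.071. With the runs as a term in the fit, the differences were 0.37 for Mcam (adjusted p = 0.291), 0.21 for Edn1 (0.496), 0.19 for Emcn (0.28) and 0.11 for Slco1c1 (0.379). They were 0.37 for Tagln (0.548), 0.25 for Vwf (0.556), 0.058 for Slc2a1 (0.875) and 0.059 for Cldn5 (0.827). In that fit 0 of all probe sets were called, against 224 without the term. The numbers are unbroken in the titles, so these 4 runs are a division made for this comparison and not one that the labels give.

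**Figure D4:**
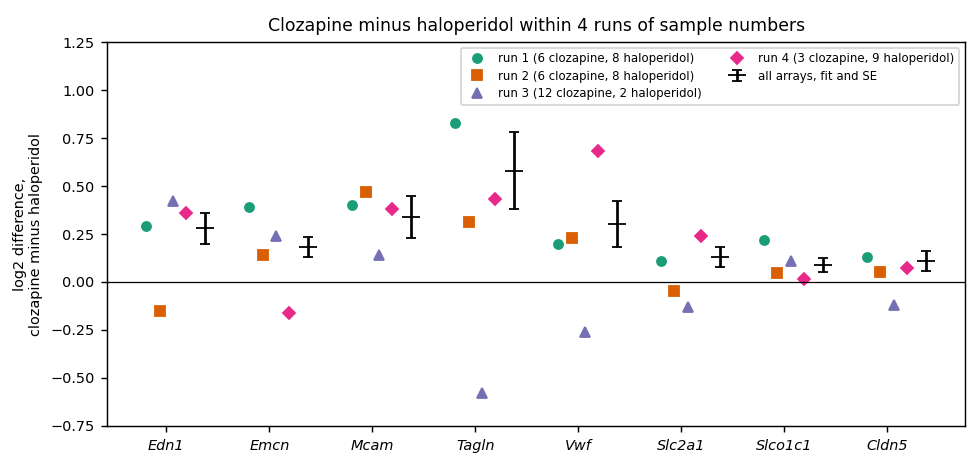
Clozapine minus haloperidol, in log2 units, for the 8 genes with an unadjusted p under 0.05, in each of the 4 runs of sample numbers (coloured symbols) and over all arrays with its SE (black). Mcam and Slco1c1 are above 0 in all 4 runs, whereas Tagln spans from -0.58 to 0.83.

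Whether genes of one cell type moved together from array to array was asked of the contractile genes and of 5 endothelial genes (Pecam1, Cldn5, Flt1, Kdr and Tek), over deviations from the group means. Altogether 117 pairs were correlated over the 3 experiments, with two-sided permutation of the arrays within groups (100000 permutations, smallest possible p 1e-05) and adjustment over the 117. Tagln and Myh11 went together in each experiment. In the neuroleptic arrays r was 0.59 (n = 63, permutation p = 1e-05, adjusted 0.00039) and rho 0.55 (p = 4e-05, adjusted 0.00078), with r = 0.54 without the 2 arrays of most distant Tagln and 0.64 within runs. In the lesion arrays r was 0.70 (n = 22, permutation p = 0.00034, adjusted 0.00398) and rho 0.74 (p = 0.00017, adjusted 0.00249), with 0.55 without 2 arrays and 0.72 within runs. In the TTX arrays r was 0.70 (n = 20, permutation p = 0.0021, adjusted 0.0154) and rho 0.58 (p = 0.0112, adjusted 0.0523), with 0.53 without 2 arrays and 0.71 within runs. Myl9 and Myh11 had r = 0.65, 0.56 and 0.46 in the lesion, TTX and neuroleptic arrays (permutation p = 0.00064, 0.0101 and 0.00078, adjusted 0.00681, 0.046 and 0.0076). Their rho was 0.64, 0.63 and 0.38 (p = 0.00182, 0.00429 and 0.0041, adjusted 0.0194, 0.0335 and 0.0335), with r = 0.62, 0.53 and 0.34 without 2 arrays and 0.67, 0.58 and 0.40 within runs.

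Acta2 was out of step with these 3. Its r with Myl9, Tagln and Myh11 was 0.13, 0.09 and 0.40 in the lesion arrays, 0.31, 0.01 and 0.11 in the TTX arrays, and 0.02, -0.19 and 0.00 in the neuroleptic arrays, none past the threshold for r and rho together. Set against Tek in the neuroleptic arrays it ran the other way, with r = -0.48 (n = 63, permutation p = 6e-05, adjusted 0.001) and rho = -0.57 (p = 1e-05, adjusted 0.00039), -0.59 without 2 arrays and -0.35 within runs. In the lesion and TTX arrays that pair had r = 0.24 and 0.45. The array SD of Acta2 in the neuroleptic experiment, 0.397, was at the 91.5 percentile of probe sets tested.

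Among the endothelial genes, 2 pairs passed the threshold for r and rho together in at least 1 experiment. Kdr and Tek had r = 0.87 in the TTX arrays (n = 20, permutation p = 1e-05, adjusted 0.00039; rho 0.86, p = 3e-05, adjusted 0.000702), with 0.86 without 2 arrays and 0.87 within runs. In the neuroleptic arrays r was 0.50 (n = 63, permutation p = 3e-05, adjusted 0.000585; rho 0.49, p = 0.00013, adjusted 0.00217), with 0.47 and 0.49, and in the lesion arrays 0.50 (n = 22, permutation p = 0.027, adjusted 0.0905; rho 0.46, p = 0.038, adjusted 0.12), with 0.50 and 0.62. Cldn5 and Tek had r = 0.60, 0.56 and 0.56 in the lesion, TTX and neuroleptic arrays (permutation p = 0.00668, 0.0102 and 2e-05, adjusted 0.0326, 0.046 and 0.000468), and rho 0.58, 0.48 and 0.55 (p = 0.00643, 0.0458 and 2e-05, adjusted 0.0396, 0.134 and 0.000585). Without 2 arrays these were 0.44, 0.43 and 0.51, and within runs 0.59, 0.59 and 0.51. Pecam1 and Flt1, both classic endothelial genes, had no pair past the threshold with another endothelial gene for r and rho together in any experiment. Only the brightest probe set of a gene entered the pairs, so the other Flt1 probe sets were not correlated. Across the cell types 7 of 20 pairs passed the threshold for r and rho together in the neuroleptic arrays, beside 3 of 6 contractile and 2 of 10 endothelial pairs; in the lesion arrays it was 1 of 20, 2 of 6 and 1 of 10, and in the TTX arrays 0 of 25, 1 of 10 and 1 of 10. The 7 were Tagln with Kdr and Tek, Myh11 with Cldn5, Kdr and Tek, Myl9 with Cldn5, and Acta2 with Tek, the last with a negative sign. Tagln and Kdr had r = 0.66 in the neuroleptic arrays (n = 63, permutation p = 1e-05, adjusted 0.00039; rho 0.65, p = 1e-05, adjusted 0.00039), with 0.62 without 2 arrays and 0.50 within runs. It was 0.65 in the lesion arrays (n = 22, permutation p = 0.0017, adjusted 0.0133; rho 0.53, p = 0.0122, adjusted 0.0549) but 0.34 there without 2 arrays, and 0.35 in the TTX arrays (n = 20, permutation p = 0.133, adjusted 0.317; rho 0.28, p = 0.23, adjusted 0.457). Des entered the pairs only in the TTX arrays, so the contractile and between-set medians there cover 1 more gene. The median r within the contractile genes was 0.52, 0.24 and 0.23 in the lesion, TTX and neuroleptic arrays. It was 0.00, 0.24 and 0.22 within the endothelial genes, and 0.24, 0.11 and 0.23 between the sets. Pairs within a set were thus not uniformly closer than pairs between the sets.

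**Figure D5:**
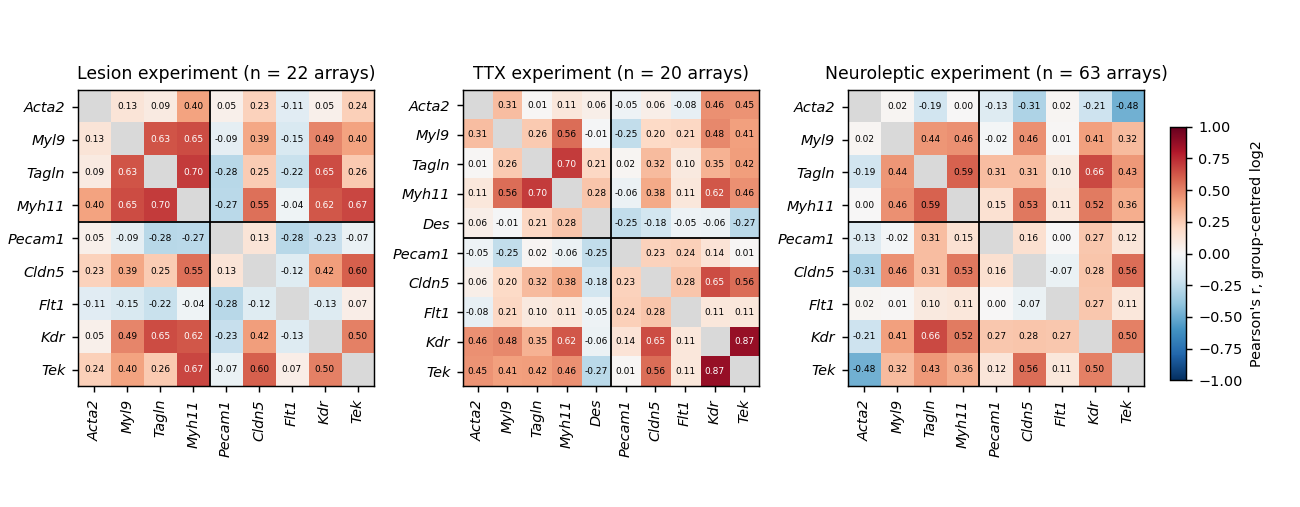
Pearson's r between contractile (left of and above the line) and endothelial genes over arrays of each experiment, after removal of group means; red is positive and blue negative, and the diagonal is grey. Myl9, Tagln and Myh11 form a red block in the lesion arrays, where Acta2 has r of at most 0.40 with them.

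Of the measured genes 11 had several probe sets, and these did not always have the same sign. After the lesion Mcam was at 0.093 ± 0.14 by the brightest probe set and -0.19 ± 0.11 by the second, and Flt1 at 0.17 ± 0.18 by the brightest and -0.020 ± 0.094 and -0.20 ± 0.14 by the others. Under haloperidol a dim Abcc9 probe set was at -0.53 ± 0.21 against -0.045 ± 0.081 by the brightest and -0.034 ± 0.18 by the third. A dim Pdgfrb probe set, not tested, was at 0.61 ± 0.29 after the lesion, against 0.035 ± 0.13 by the brightest. With TTX the second Ocln probe set was at -0.21 ± 0.089 against -0.050 ± 0.10 by the first. The Col4a1 probe sets lay close to each other in all these comparisons, for example -0.12 ± 0.090 and -0.10 ± 0.15 after the lesion. Splice forms and 3' ends that the probe sets cover were not analysed here.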

How the data were processed

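The deposited table held 1 linear intensity per probe set and array for 31099 probe sets; per the values, the authors had scaled each array to a trimmed mean between 2500.6 and 2500.8. Software and background correction were not in the sources used here, and no detection calls or scan dates were at hand. Here the 57 control probe sets were left out, and intensities were quantile-normalised within each of 3 experiments, floored at 32 and put on the log2 scale. The 60% with the highest mean were tested with limma 3.58.1 (R 4.3.3; lmFit, eBayes), 1 mean per group and no covariate. A fit was made for each surgical experiment, another for both jointly and another for the 7 neuroleptic groups, with Benjamini-Hochberg adjustment over the probe sets of each of 14 comparisons. Symbols came from the platform's annotation. The members and all lists were chosen with earlier results of these data known. By rule, the text names members with an unadjusted p under 0.05 and the larger differences of each role, and at most 3 genes of any other list. Replicate numbers follow the order of samples. Sample numbers in the titles are unbroken within an experiment; the runs are near-equal divisions of them made here, with results known, and the TTX division lies where a jump had been seen in the arrays. They are no batches of the labels. Motifs, pairs and figures used Python 3.11.15 and matplotlib 3.10.9. Alternatives covered normalisation, floor, filter, array weights, eBayes settings, runs as a term, arrays that stood apart, probe set choice and single dose levels. The number of arrays limits the precision.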

Additional observations from a re-analysis of the deposited data

Results flagged for a closer look

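In 87 checks, 1 for each gene named by the rule in an experiment and each group of up to 10 arrays there, 3 groups held an array far from the rest by Dixon's criterion; chance alone flags about 1 in 20. Tagln was at 6.99 on haloperidol high replicate 8, where the nearest other array of the group was at 8.99 and the highest at 10.57; this array was also 1 of the 4 that stood apart in its correlations. Without the arrays that stood apart Tagln differed by 0.44 between clozapine and haloperidol (adjusted p = 0.245), against 0.58 with them. Edn1 was at 8.49 on haloperidol medium replicate 2, with the nearest at 9.19 and the highest at 9.73. Vcam1 was at 12.49 on vehicle replicate 7, with the nearest at 12.36 and the lowest at 12.22. The causes were not tested.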

How the results depend on the processing

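For 24 differences of named genes 257 alternative values were computed, and 257 kept the direction. Single other probe sets and single runs of sample numbers with the opposite sign are not counted among them, so the 257 do not speak for those. In the joint fit the second Mcam probe set was such a case, at -0.2. Between clozapine and haloperidol so were Edn1, Emcn, Tagln, Vwf, Slc2a1 and Cldn5 within single runs. For the haloperidol mean Myh11 was another, within a single run and by its dim second probe set, at 0.44. With TTX the dim second Kdr probe set was at 0.16, opposite in sign to the brightest. The genes called stayed at 0 in every comparison and alternative but 1: array weights gave 2 genes called between clozapine and haloperidol, Mcam at 0.38 (adjusted p = 0.0308) and Emcn at 0.19 (0.0254), against 0 without weights. With runs of sample numbers as a term their adjusted p was 0.291 and 0.28. All probe sets called in that comparison numbered 224, 529 with array weights, 135 with the mean of a gene's probe sets, 65 without the arrays that stood apart, 49 without a filter and 0 with the runs as a term. Other counts of all probe sets that moved by over 1.5 times were 0 to 5 against 3 for the haloperidol mean, 1 to 10 against 4 for medium clozapine, 2 against 1 for high clozapine, 0 to 4 against 1 for medium haloperidol, 1 to 8 against 5 for high haloperidol, 1 against 0 for the clozapine mean and, without a filter, for the lesion, and 4 against 0 for high against low clozapine with 40% of probe sets tested. The list medians kept their sign in 18 of 28 cases; contractile medians ran from -0.21 to -0.13 after the lesion and -0.16 to -0.091 for the haloperidol mean, endothelial ones from -0.052 to -0.0027 and -0.076 to -0.060. The contractile median with TTX turned sign, from -0.00089 to 0.083, as did both medians for the clozapine mean. Causes were not tested. No paired analysis was possible because the labels give no replicate numbers. No detection calls were at hand, so signal over background is unknown for dim genes such as Cnn1, which was at the floor on 6 lesion-experiment arrays.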
